A study of Mus musculus with 12 samples.

Results

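The genes described here are 8 that encode costimulatory and checkpoint molecules of macrophages, namely Cd80, Cd86, Icosl, Cd274, Pdcd1lg2, Cd276, Lgals9 and Havcr2. They were chosen by symbol, and all 8 were found in each of 3 comparison tables that together list 24351 genes. 7 encode ligands, and Havcr2 encodes Tim-3, a receptor of galectin-9. The cells were bone marrow-derived macrophages of wild-type C57BL/6 male mice of 8 to 16 weeks, grown from marrow for 7 days with 10% serum and M-CSF, the macrophage growth factor, at 10 ng/mL, which stayed in the medium afterwards. Monophosphoryl lipid A (MPLA) is a detoxified derivative of lipopolysaccharide and a ligand of Toll-like receptor 4. There were 12 RNA-seq libraries of polyadenylated RNA, 3 after 4 h of MPLA, 3 after 24 h of MPLA, 3 harvested 3 d after priming ended and 3 from controls without MPLA. All 4 groups share strain and M-CSF. The protocol also names MyD88-/- and TRIF-/- mice, but none of the 12 libraries carries such a label. The labels give neither the MPLA dose, nor the length of priming in the 3 d group, nor the harvest time of the controls. They also do not say that the 3 libraries of each group are separate mice or dishes, so the p-values may reflect only technical spread.

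A T cell that recognises antigen on a macrophage also reads a second signal from ligands of the B7 family. CD80 and CD86 engage CD28, which activates, or CTLA-4, which inhibits, and ICOS ligand engages ICOS. PD-L1, encoded by Cd274, and PD-L2, encoded by Pdcd1lg2, engage the inhibitory receptor PD-1, and galectin-9 binds Tim-3, which is carried by exhausted T cells and by myeloid cells. In macrophages, Toll-like receptor 4 and interferon signalling are known to raise several of these ligands, the activating and the inhibitory ones together.

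No value per library was available, so each gene is described by the log2 fold change of MPLA over control in the authors' deposited tables, made with DESeq2 unless edgeR is named. A gene was called when its DESeq2 adjusted p was under 0.05. The standard error (SE) given with a change was computed from the p-value of the authors' deposited table, as the size of the log2 change divided by the normal quantile of that p. No SE could be had where the p was stored as 0, as it was for 4 of the 8 genes at 4 h, 4 at 24 h and 1 at 3 d. The 3 comparisons use the same 3 controls and were normalized separately, so values of different times stand side by side without a test of their difference.

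All 8 genes changed at 4 h, 6 upward and 2 downward, and the same counts held at 24 h, while at 3 d 7 were higher, 0 were lower and 1, Pdcd1lg2, missed the threshold, all in the authors' deposited tables. With edgeR 6 were higher and 2 lower at 4 h, 5 higher and 2 lower at 24 h, and 7 higher and 0 lower at 3 d, in the authors' deposited tables. Calls were common among all tested genes, at 62.9% at 4 h, 64.6% at 24 h and 55.2% at 3 d. Higher calls made up 31.8%, 32.4% and 29.5% of the tested genes at 4 h, 24 h and 3 d, and lower calls 31%, 32.2% and 25.8%. With edgeR 63.6%, 58% and 43.3% of the listed genes were called, with 13.5%, 16.2% and 15.5% called higher and 50.1%, 41.8% and 27.7% called lower. At an adjusted DESeq2 p under 0.01 the shares were 57.3%, 58% and 47.7%, and at a baySeq error rate under 0.05 they were 53.8%, 50.9% and 16.4%. The share of the 8 genes with a call was above that of all tested genes each time, and with calls this common little can be read from it. The median log2 change of the 8 genes was 2.96 at 4 h, 2.51 at 24 h and 0.737 at 3 d in the authors' deposited tables, beside medians over all tested genes of -0.04, -0.05 and -0.02. Changes of at least 2-fold were reached by 6 higher and 0 lower genes at 4 h, by 5 higher and 2 lower genes at 24 h, and by 2 higher genes at 3 d, Cd274 and Lgals9, beside 36.6%, 29.2% and 11.6% of all tested genes in either direction. With edgeR the median of all tested genes lay at -0.967, -0.465 and -0.146 at 4 h, 24 h and 3 d in the authors' deposited tables, and every one of the 8 genes kept its direction at each time. The edgeR median of the 8 genes was 2.025 at 4 h, 2.097 at 24 h and 0.623 at 3 d in the authors' deposited tables. The order of the 4 h and 24 h medians thus differed between the methods.

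**Figure D1:**
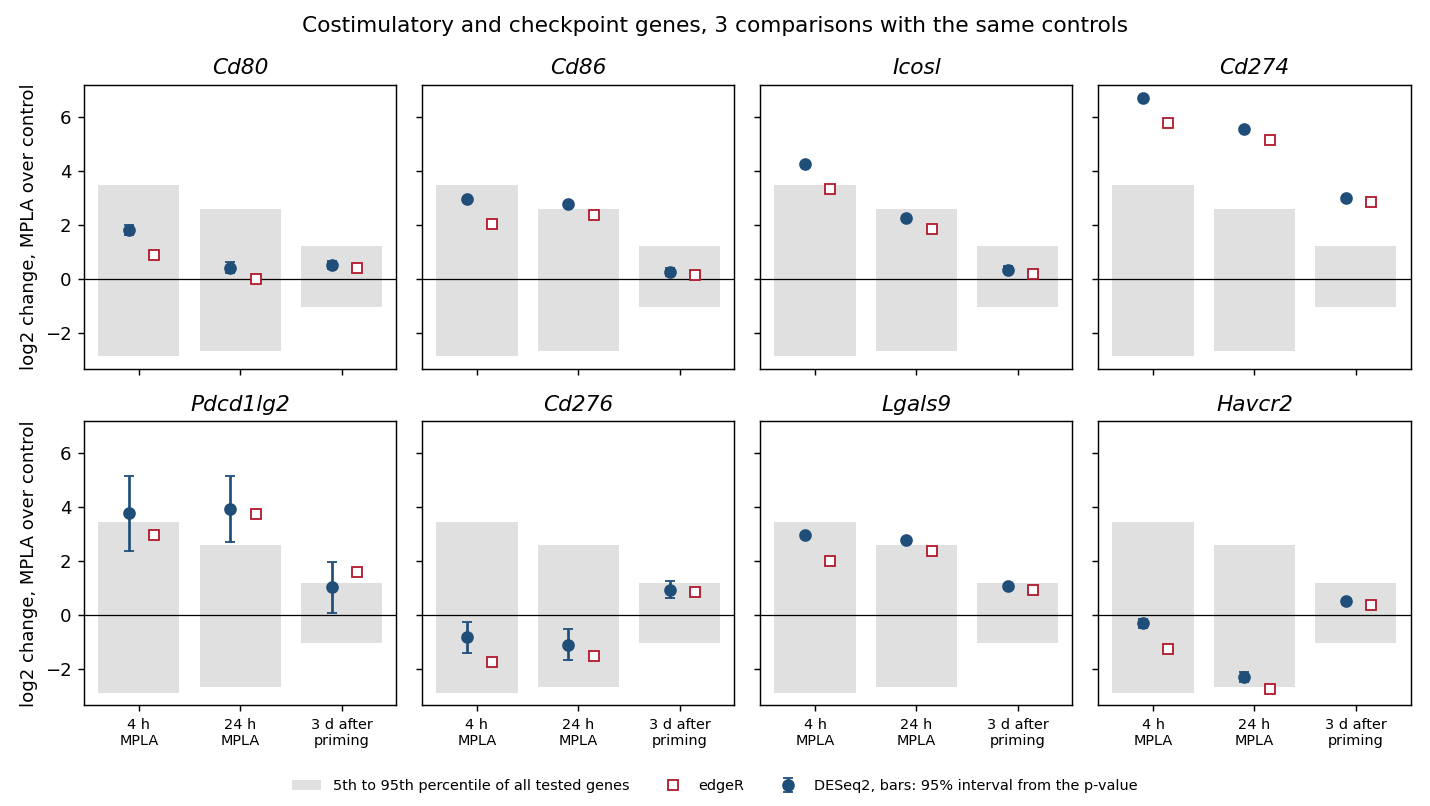
Log2 change of each gene, MPLA over control, on the vertical axis at 4 h and 24 h of MPLA and 3 d after priming. Filled circles are DESeq2 values with 95% intervals computed from the p-values (none where p was stored as 0 or where they are narrower than the circle), open squares are edgeR values and grey bars span the 5th to 95th percentile of all tested genes. Cd274 lies above the grey bar at all 3 times, and Cd276 and Havcr2 lie below 0 at 4 h and 24 h and above 0 at 3 d.

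The PD-1 ligand genes included the gene that rose most of the 8. Cd274 (ENSMUSG00000016496, chromosome 19, 29367455 to 29388095, plus strand, GRCm38) was 103.8-fold higher after 4 h of MPLA, 47.0-fold higher after 24 h and 7.90-fold higher 3 d after priming in the authors' deposited tables. These are log2 changes of 6.70, 5.55 and 2.98, each with a DESeq2 adjusted p stored as 0 in the authors' deposited tables, and edgeR gave 5.76, 5.14 and 2.86. Cd274 lay above 99.1%, 98.9% and 99.1% of the tested genes at 4 h, 24 h and 3 d. By the annotation 14.1% of its exonic bases lie within exons of AC119228.1 on the opposite strand, and 1.68% of its 50-base windows also occur in transcripts of other genes. The library kit keeps strand, but no source used here says whether the authors counted by strand, so that stretch is uncertain.

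Pdcd1lg2 (ENSMUSG00000016498, chromosome 19, 29410919 to 29471161, plus strand) starts 22.8 kb after the end of Cd274. Its transcript was 13.8-fold higher at 4 h, with a log2 change of 3.78 (SE 0.708, DESeq2 adjusted p = 2.243e-07), and 15.4-fold higher at 24 h, with a log2 change of 3.94 (SE 0.62, DESeq2 adjusted p = 5.652e-10), in the authors' deposited tables. At 3 d the log2 change was 1.03 (SE 0.476, 95% interval 0.100 to 1.97), and the DESeq2 adjusted p of 0.0537 missed the threshold, while edgeR gave 1.61 with an adjusted p of 0.0216 in the authors' deposited table. Its SE was larger than those of the other genes of the 8 that have one, which reach 0.294 at 4 h and 24 h and 0.155 at 3 d. The 3 d value also differed between the methods. Over all tested genes the DESeq2 value lay above the edgeR value by a median of 0.13 at 3 d, but for Pdcd1lg2 it lay below it, with a difference of -0.578. Pdcd1lg2 was not alone in this at 3 d. Tnfrsf9 (SE 0.454) was at 2.76 with DESeq2 and 4.59 with edgeR. Dcn (SE 0.42), listed at 0 in the controls, was at 4.70 and 9.81, in the authors' deposited table. The cause was not tested, and SEs and intervals belong to the DESeq2 values. They do not cover differences between the methods: the 95% interval of Tnfrsf9 at 3 d, 1.87 to 3.65, leaves out its edgeR value. The unscaled log2 ratio of Pdcd1lg2 was 2.84 both at 4 h and at 3 d in the authors' deposited tables. The scaling of MPLA over control libraries implied by the offset from the unscaled ratios was 0.859 at 4 h and 2.32 at 3 d for edgeR, and 0.449 and 2.12 for DESeq2.

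The 250 bases before the RefSeq transcription start (GRCm38.p6) are shown for Cd274, the gene that rose most, and for the 3 genes in whose window a searched motif was found. RefSeq windows were matched for 7 of the 8 genes, all but Cd86. On both strands 3 motifs were searched. The NF-kB motif was GGGRNNYYCC, where R is A or G, Y is C or T and N is any base. The interferon-stimulated response element (ISRE) was GAAA, any 2 bases and GAAA again, and the gamma-activated site (GAS) was TTCNNNGAA. Capitals mark a match. The windows are chr19:29367188-29367437 on the plus strand for Cd274, chr19:29410669-29410918 on the plus strand for Pdcd1lg2, chr10:78069118-78069367 on the plus strand for Icosl and chr11:78984925-78985174 on the minus strand for Lgals9.
Cd274: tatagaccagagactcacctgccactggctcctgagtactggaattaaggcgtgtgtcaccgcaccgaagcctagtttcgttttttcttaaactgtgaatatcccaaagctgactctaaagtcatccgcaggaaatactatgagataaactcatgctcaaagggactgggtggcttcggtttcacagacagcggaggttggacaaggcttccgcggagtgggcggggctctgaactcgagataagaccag
Pdcd1lg2: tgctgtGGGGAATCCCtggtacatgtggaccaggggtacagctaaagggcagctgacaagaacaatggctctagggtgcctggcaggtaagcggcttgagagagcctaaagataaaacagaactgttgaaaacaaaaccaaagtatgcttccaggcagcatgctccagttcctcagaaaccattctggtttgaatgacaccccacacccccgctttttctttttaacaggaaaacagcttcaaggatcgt
Icosl: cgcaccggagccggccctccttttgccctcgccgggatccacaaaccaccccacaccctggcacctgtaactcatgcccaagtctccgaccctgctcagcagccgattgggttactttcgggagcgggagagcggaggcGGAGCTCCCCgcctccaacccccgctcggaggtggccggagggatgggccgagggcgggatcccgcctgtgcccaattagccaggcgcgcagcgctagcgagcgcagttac
Lgals9: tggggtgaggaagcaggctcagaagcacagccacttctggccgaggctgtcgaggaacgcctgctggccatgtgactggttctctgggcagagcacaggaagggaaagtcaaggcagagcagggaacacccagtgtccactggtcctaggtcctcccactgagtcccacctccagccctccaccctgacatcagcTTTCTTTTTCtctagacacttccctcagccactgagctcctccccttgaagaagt
The Pdcd1lg2 window holds an NF-kB match, GGGGAATCCC, that reads as a match on both strands, from 244 to 235 bases before the start. The Icosl window holds an NF-kB match on the opposite strand, from 111 to 102 bases before the start, and the Lgals9 window an ISRE match on the opposite strand, from 55 to 46 bases before it. Neither these letters nor the GAS letters occur in the Cd274 window, nor in those of Cd80, Cd276 and Havcr2. Of 32851 windows of the same length, 7.25% hold the NF-kB motif, 7.02% the GAS and 2.98% the ISRE. A match is a description of the letters, not of binding. Absence of a match in 250 bases does not show that a gene lacks such a site elsewhere or in other letters.

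The 3 nearest protein-coding genes on either side of each gene of this pair on chromosome 19 were read. Genes beyond these were not read as neighbours, so the values do not show how far along the chromosome such changes extended. Cd274 begins 0.065 kb from Plgrkt, a plasminogen receptor gene, which was at 0.12 at 4 h (SE 0.0656, DESeq2 adjusted p = 0.0884) in the authors' deposited table, beside the 6.70 of Cd274. At 24 h Plgrkt rose by 0.35 (SE 0.0574) and at 3 d it stood at -0.08 without a call, while edgeR gave -0.81, -0.06 and -0.21 at the 3 times, in the authors' deposited tables. Insl6, which encodes an insulin-like peptide and lies 42.1 kb before Cd274, rose by 2.21, 2.42 and 0.52 at 4 h, 24 h and 3 d in the authors' deposited tables. Ric1, 51.1 kb after Pdcd1lg2, was higher by 1.35, 1.73 and 0.59, and with edgeR by 0.42, 1.31 and 0.46, in the authors' deposited tables. Ermp1, the next gene, stood at -0.22, 0.14 and 0.13, called each time, in the authors' deposited tables. With edgeR Ermp1 was at -1.16, -0.27 and 0.00 in the authors' deposited tables, so its sign at 24 h differed between the methods. Mlana, the melanoma antigen gene beyond it, had no adjusted p at any time and was listed at 0 after MPLA at 4 h and 3 d, and Rln1 was not in the tables.

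**Figure D2:**
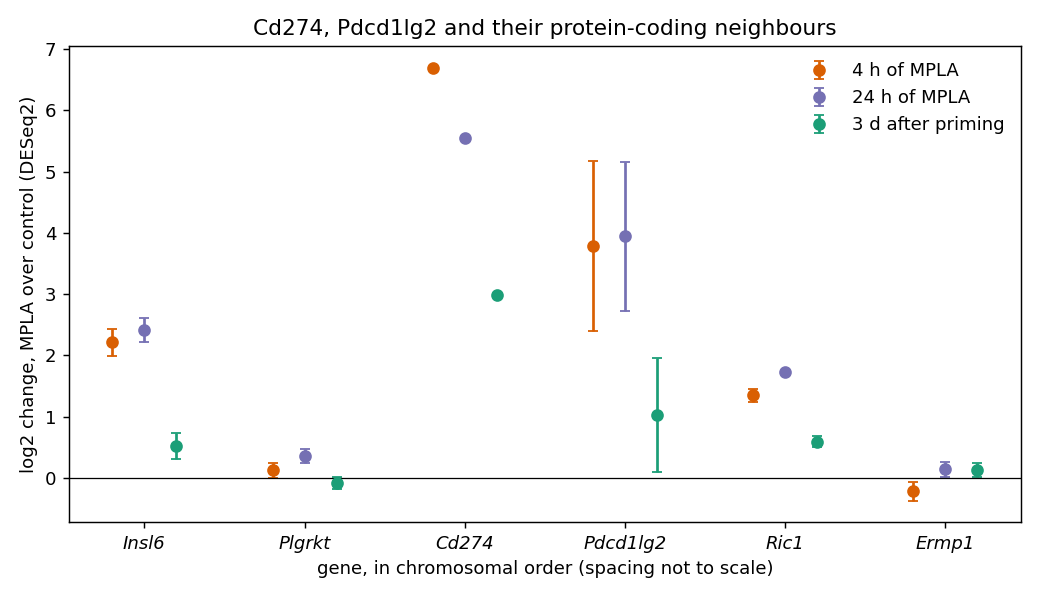
Log2 change, MPLA over control (DESeq2), on the vertical axis for Cd274, Pdcd1lg2 and 4 protein-coding neighbours in chromosomal order, with 95% intervals computed from the p-values. Plgrkt, 0.065 kb from Cd274, lies between -0.08 and 0.35 at all 3 times, while Cd274 lies between 2.98 and 6.70.

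Both genes of CD28 and CTLA-4 ligands rose at 4 h, and Cd86 rose more than Cd80 there and at 24 h by the values, without a test between genes. Cd86 (ENSMUSG00000022901, chromosome 16, 36603869 to 36666081, minus strand) was 7.81-fold higher at 4 h and 6.86-fold higher at 24 h, and 1.20-fold higher at 3 d, in the authors' deposited tables. Its log2 changes were 2.97 and 2.78 with adjusted p-values stored as 0, and 0.26 at 3 d (SE 0.0754, DESeq2 adjusted p = 0.00143), in the authors' deposited tables. With edgeR Cd86 was at 2.03 at 4 h and 2.36 at 24 h in the authors' deposited tables, so the order of these times differed between the methods. Its edgeR value at 3 d was 0.13 and was not called, at an adjusted p of 0.153 in the authors' deposited table. Cd80 (ENSMUSG00000075122, chromosome 16, 38455561 to 38496335, plus strand), whose protein also binds PD-L1 on the same cell surface, rose 3.52-fold at 4 h, a log2 change of 1.81 (SE 0.0883, DESeq2 adjusted p = 7.510e-93) in the authors' deposited table. At 24 h Cd80 was higher by 0.42 (SE 0.0972, DESeq2 adjusted p = 3.235e-05), but edgeR put it at 0.01 with an adjusted p of 0.948 in the authors' deposited table, so the call at 24 h differed between the methods. At 3 d it was higher by 0.52 (SE 0.0817) and by 0.39 with edgeR, called by both, in the authors' deposited table. Cd80 lay above 86.5%, 69.9% and 85.5% of the tested genes at 4 h, 24 h and 3 d, and Cd86 above 93.1%, 95.6% and 73.0%.

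Icosl (ENSMUSG00000000732, chromosome 10, 78069302 to 78083913, plus strand), the gene of the ICOS ligand, came after Cd274 in size at 4 h, though within the interval of Pdcd1lg2 (2.39 to 5.17), and was 4.74-fold higher at 24 h in the authors' deposited tables. At 3 d it was 1.26-fold higher, a log2 change of 0.33 (SE 0.0657, DESeq2 adjusted p = 1.252e-06), against 4.24 at 4 h and 2.24 at 24 h, in the authors' deposited tables. With edgeR the values were 3.31, 1.83 and 0.20, each called, in the authors' deposited tables.

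Lgals9 and Havcr2, which encode a ligand and its receptor, had opposite signs during exposure. Lgals9 (ENSMUSG00000001123, chromosome 11, 78962974 to 78984946, minus strand) was 7.76-fold higher at 4 h, 6.93-fold higher at 24 h and 2.11-fold higher at 3 d in the authors' deposited tables. The 3 d change was 1.08 on the log2 scale (SE 0.0437, DESeq2 adjusted p = 1.260e-132) in the authors' deposited table and lay above 94.2% of the tested genes. With edgeR the log2 changes of Lgals9 were 2.02, 2.38 and 0.95, each called, in the authors' deposited tables. The order of 4 h and 24 h thus differed between the methods. Havcr2 (ENSMUSG00000020399, chromosome 11, 46454935 to 46481255, plus strand) fell by 0.30 at 4 h (SE 0.0777, DESeq2 adjusted p = 2.334e-04) and by 2.29 at 24 h (SE 0.0908, DESeq2 adjusted p = 2.917e-139), which is 4.89-fold lower, in the authors' deposited tables. Only 6.93% of the tested genes lay below it at 24 h. At 3 d Havcr2 was 1.43-fold higher, a log2 change of 0.52 (SE 0.0485, DESeq2 adjusted p = 1.521e-25), in the authors' deposited table. With edgeR its values were -1.24, -2.71 and 0.39, each called, so the size at 4 h differed between the methods and the direction did not.

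Cd276 (ENSMUSG00000035914, chromosome 9, 58524298 to 58555437, minus strand) encodes B7-H3, a B7 family member whose receptor is not settled. Like Havcr2 it was lower during exposure and higher afterwards. Its log2 change was -0.81 at 4 h (SE 0.294, DESeq2 adjusted p = 0.0102), -1.08 at 24 h (SE 0.294, DESeq2 adjusted p = 4.469e-04) and 0.95 at 3 d (SE 0.155, DESeq2 adjusted p = 3.236e-09) in the authors' deposited tables. These are 1.76-fold and 2.12-fold lower at 4 h and 24 h and 1.93-fold higher at 3 d, and edgeR gave -1.74, -1.51 and 0.86, each called, in the authors' deposited tables. By the annotation 11.4% of its exonic bases lie within exons of Gm10657 on the opposite strand, a gene without an adjusted p at any time.

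The order of the changes could be read against their intervals only where a SE was available. These intervals belong to the DESeq2 values and do not cover differences between the methods. At 3 d Cd274 stood alone at 2.98, followed by Lgals9 (95% interval 0.991 to 1.16), Pdcd1lg2 and Cd276 (0.649 to 1.26), whose intervals overlap, in the authors' deposited table. Next came Cd80 (0.361 to 0.681), Havcr2 (0.422 to 0.612), Icosl (0.205 to 0.463) and Cd86 (0.111 to 0.407) at 3 d in the authors' deposited table. Each of these intervals overlaps that of its neighbour in the order, Cd80 overlaps Cd276, and the interval of Pdcd1lg2 (0.100 to 1.97) covers those of all 4. At 4 h Cd86 and Lgals9 were at 2.97 and 2.96, and at 24 h at 2.78 and 2.79, with p-values stored as 0 in the authors' deposited tables.

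Other ligands and receptors of T cell signals were read from lists that were chosen with results of these data known, so their counts are descriptions. Of 8 other B7-like genes 3 were tested at each time, and 2 fell at 4 h and 1 at 24 h and 3 d in the authors' deposited tables. By edgeR 0 rose and 2 fell at 4 h, 1 rose and 2 fell at 24 h, and 0 rose and 1 fell at 3 d. Vsir, which encodes the inhibitory ligand VISTA, fell by 1.76 at 4 h and by 2.40 at 24 h, with adjusted p-values stored as 0, and by 0.72 at 3 d (SE 0.0309, DESeq2 adjusted p = 5.585e-117), in the authors' deposited tables. Btnl2, a butyrophilin-like gene, fell by 2.87 at 4 h (SE 1.20, DESeq2 adjusted p = 0.028) in the authors' deposited table. Vsir was lower at each of the 3 times.

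Of 9 genes of TNF-family costimulation, 8 rose and 1 fell at 4 h, and 6 rose and 1 fell of 8 tested at 24 h and at 3 d, in the authors' deposited tables, with the same counts by edgeR. The median over those with reads in both groups was 4.88 at 4 h, 1.68 at 24 h and 1.26 at 3 d in the authors' deposited tables. Cd40, the receptor through which helper T cells activate macrophages, was highest at 4 h (9.72) and 24 h (6.59), and Tnfsf15, which encodes TL1A, was highest at 3 d (4.06) in the authors' deposited tables. Tnfsf4, the gene of OX40 ligand, was at 7.92, 1.58 and 2.47, and Tnfsf9, the gene of 4-1BB ligand, was at 5.44, 2.63 and 0.84 at 4 h, 24 h and 3 d in the authors' deposited tables. Tnfsf14, which encodes LIGHT, was lowest each time, at -1.08, -3.13 and -0.85 in the authors' deposited tables. Cd70, the ligand of CD27, was listed at 0 in the controls in all 3 tables and was called higher at 4 h.

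Of 16 other genes of inhibitory or phagocytosis-blocking signals 15 were tested, and 9 rose and 4 fell at 4 h, 9 rose and 3 fell at 24 h and 11 rose and 3 fell at 3 d in the authors' deposited tables. With edgeR 7 rose and 6 fell at 4 h and at 24 h in the authors' deposited tables. Cd200, whose product restrains myeloid cells through CD200R1, was highest each time, at 6.57, 4.84 and 3.36, while its receptor gene Cd200r1 fell by 0.71, by 1.52 and by 0.33, in the authors' deposited tables. Fgl2 was at 5.92, 4.80 and 2.76, and Pvr, the gene of the TIGIT ligand CD155, at 3.66, 2.76 and 1.06 in the authors' deposited tables. Cd47, whose product signals to the phagocyte receptor SIRP alpha, was higher by 2.40, 1.71 and 0.61, while Sirpa was at -0.99, 0.19 and 0.42, or -1.92, -0.22 and 0.29 with edgeR, in the authors' deposited tables. The lowest called genes were Sirpa at 4 h, Lgals3 at 24 h (-1.79) and Hmgb1, also a Tim-3 ligand gene, at 3 d (-0.63) in the authors' deposited tables.

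**Figure D3:**
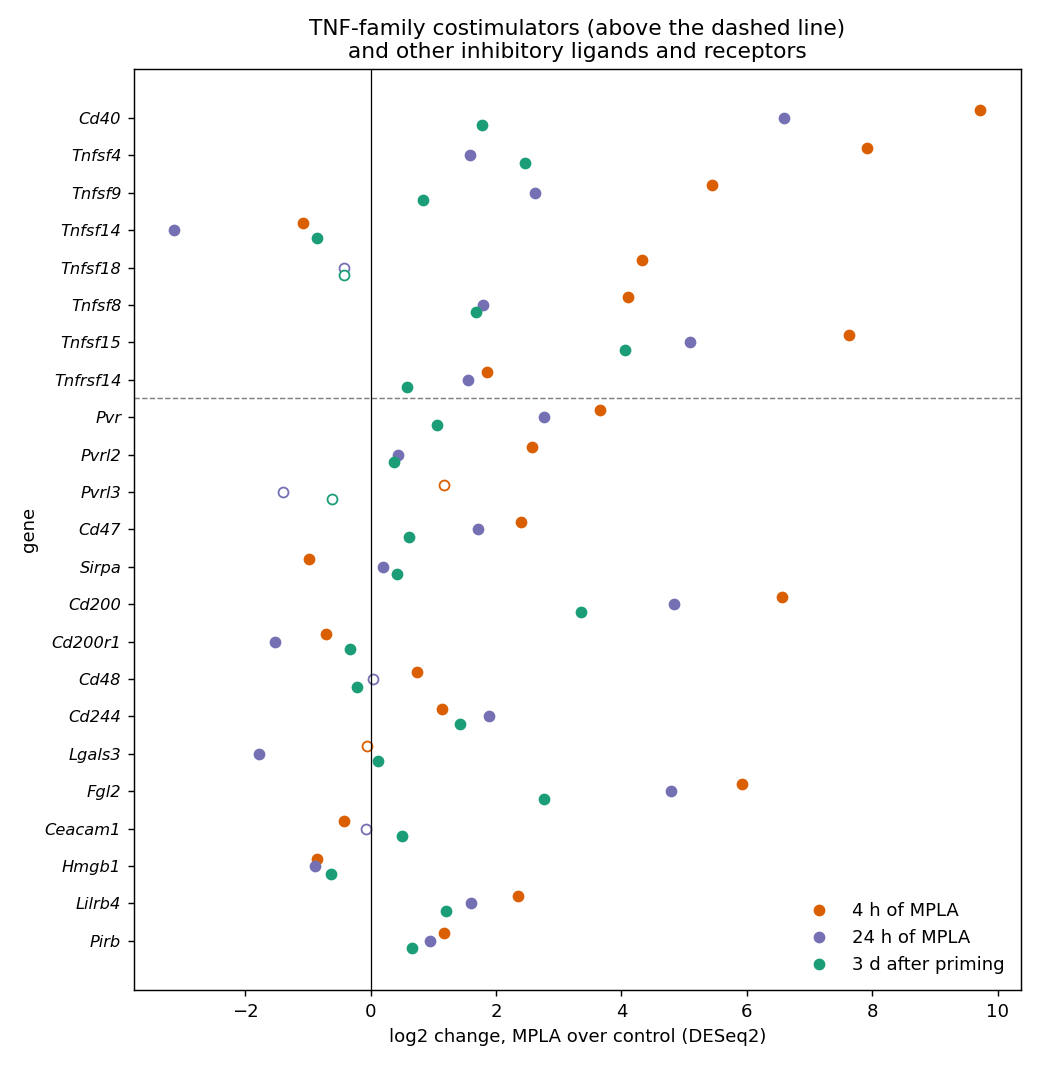
Log2 change, MPLA over control (DESeq2), on the horizontal axis for genes of TNF-family costimulation above the dashed line and other inhibitory ligands and receptors below it. Filled circles were called and open circles were not, and genes listed at 0 in a group are left out. Cd40 reaches 9.72 and Cd200 reaches 6.57 at 4 h, and Tnfsf14 lies below 0 at all 3 times.

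Galectin and TIM genes related to Lgals9 and Havcr2 did not share 1 direction. Of 10 genes of galectins and related proteins, including Lgals3bp, 6 were tested. Of these 3 rose and 1 fell at 4 h, 2 rose and 4 fell at 24 h and 3 rose and 2 fell at 3 d in the authors' deposited tables. With edgeR 1 rose and 5 fell, 2 rose and 4 fell, and 2 rose and 3 fell. The gene that rose with edgeR at 4 h was Lgals3bp (0.68). The secreted galectin-binding protein gene Lgals3bp was highest at 1.62, 2.27 and 1.63, Lgals4 was lowest at 4 h and 3 d at -2.60 and -1.33, and Lgalsl was lowest at 24 h at -2.53, all in the authors' deposited tables. Lgals1 was at 0.13 at 4 h, or -0.81 with edgeR, and at -1.30 at 24 h in the authors' deposited tables. Among TIM family genes and kinases or adaptors linked to Tim-3, 4 of 5 tested rose at 4 h, 2 rose and 2 fell at 24 h and 3 rose and 1 fell at 3 d in the authors' deposited tables. By edgeR 4 rose and 1 fell at 4 h, 3 rose and 2 fell at 24 h, and 2 rose and 1 fell at 3 d. The 3 at 24 h include Timd4, which had no DESeq2 adjusted p there. The kinase gene Fyn was at 1.16, -1.47 and -0.28 at 4 h, 24 h and 3 d in the authors' deposited tables. Timd4 was listed at 0 in the controls and called higher at 4 h, and Bag6, the gene of a Tim-3 adaptor, was at 0.02 without a call at 4 h, or -0.92 with edgeR, by the authors' deposited table.

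Genes of T cell receptors for these ligands were read as well. Of 12, 7 were tested at 4 h and 24 h and 6 at 3 d, and 3 rose and 1 fell, 3 rose and 2 fell, and 1 rose and 1 fell at 4 h, 24 h and 3 d in the authors' deposited tables. With edgeR 3 rose and 3 fell at 4 h and at 24 h, and 1 rose and 2 fell at 3 d. Cd28, the receptor gene for CD80 and CD86, fell by 3.25 at 4 h and by 4.38 at 24 h, with adjusted p-values stored as 0, and by 0.75 at 3 d (SE 0.0383, DESeq2 adjusted p = 3.854e-83), in the authors' deposited tables. Tnfrsf9, which encodes 4-1BB, was the highest called gene not listed at 0 in either group, at 5.48, 2.79 and 2.76 in the authors' deposited tables. With edgeR Tnfrsf9 was at 4.88, 2.87 and 4.59 in the authors' deposited tables. Its 3 d value was thus above that at 24 h with edgeR and not with DESeq2. Lag3 was at 3.52 and 1.90 at 4 h and 24 h and at 0.22 without a call at 3 d in the authors' deposited tables. Pdcd1, the PD-1 gene, had no adjusted p at any time and Ctla4 was in none of the tables. Btla was listed at 0 in the controls and called higher at 4 h and 24 h. Of 8 T cell markers 3, 4 and 5 were in the tables at 4 h, 24 h and 3 d, and Cd3g, Cd8a and Cd8b1 were in none. Lck was called higher at 4 h at 7.19 (SE 0.394), or 6.33 with edgeR, in the authors' deposited table. At 24 h and 3 d Lck was at 1.37 and 0.21 without a call. Cd4 was at -0.91, -1.35 and 1.01, called each time, and Cd2 was listed at 0 after MPLA at 24 h and called lower, in the authors' deposited tables.

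Genes whose products act on these ligands at the protein or gene level changed in both directions. Of 11 genes for proteins that stabilise or degrade PD-L1 or CD86, or bind PD-L2, 6 rose and 3 fell at 4 h, 4 rose and 3 fell at 24 h and 5 rose and 3 fell at 3 d in the authors' deposited tables, but with edgeR 2 rose and 7 fell, 1 rose and 7 fell, and 1 rose and 5 fell. Cmtm6, whose product protects PD-L1 from degradation, rose by 2.47 at 4 h and fell by 0.15 at 24 h and by 0.35 at 3 d, while its relative Cmtm4 was lowest at 4 h and 24 h, at -2.10 and -1.28, in the authors' deposited tables. Cops5 was highest at 24 h (1.22), Usp22 at 3 d (0.32) and B3gnt3 lowest at 3 d (-0.37) in the authors' deposited tables. March1, the gene of a ubiquitin ligase that removes CD86 from the surface, was at -0.09 without a call at 4 h, 0.41 at 24 h and 0.14 at 3 d, and with edgeR at -1.03, -0.01 and 0.01, in the authors' deposited tables.

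Of 25 transcription factors and signal transducers known to act on Cd274, Cd80 or Cd86, 21 rose and 3 fell at 4 h, 18 rose and 4 fell at 24 h and 18 rose and 6 fell at 3 d in the authors' deposited tables. By edgeR 18 rose and 6 fell, 14 rose and 9 fell, and 15 rose and 7 fell in the authors' deposited tables. Jak2, a kinase of interferon gamma signalling, was highest at 4 h (5.30), and Batf was highest at 24 h (5.26) and 3 d (2.68) in the authors' deposited tables. Irf1, an interferon-induced transcription factor, was at 4.53, 1.72 and 0.40 in the authors' deposited tables. Irf4 was lowest each time, at -2.31, -3.46 and -1.93, and Ifngr1, an interferon gamma receptor subunit, was at -1.44, -1.36 and -0.19 in the authors' deposited tables.

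**Figure D4:**
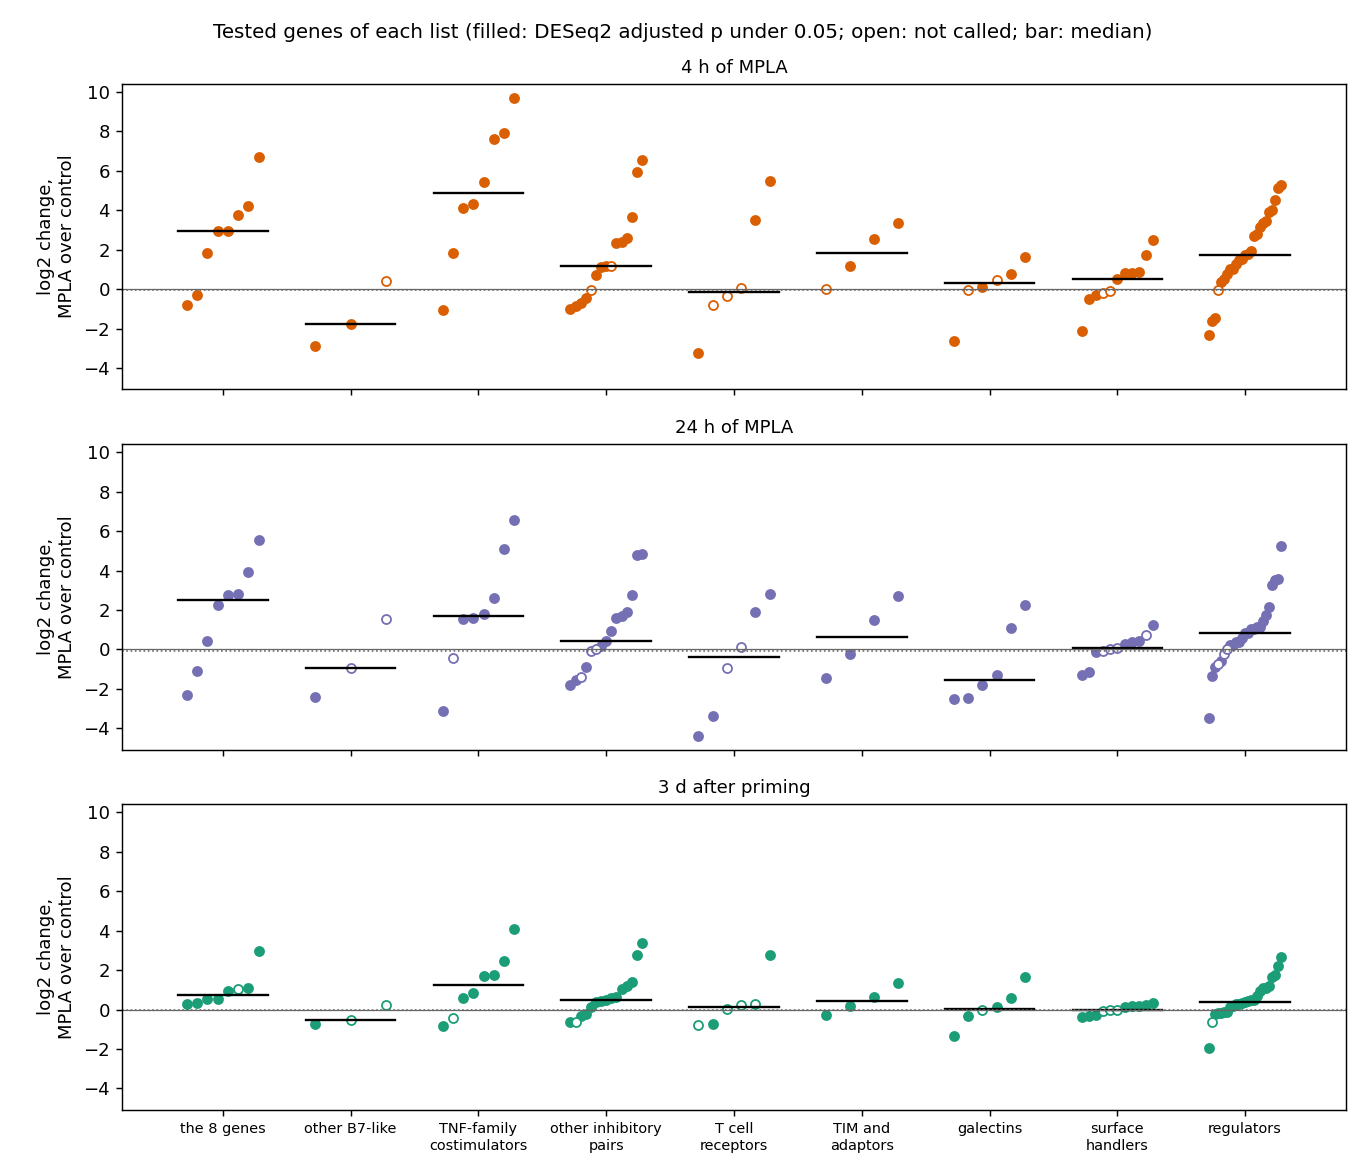
Log2 change, MPLA over control (DESeq2), on the vertical axis for the tested genes of each list, in 1 panel per time, with a bar at the median of the list and a dotted line at the median of all tested genes. Filled circles were called, open circles were not, and genes listed at 0 in a group are left out. The median of the 8 genes is 2.96 at 4 h, 2.51 at 24 h and 0.737 at 3 d, and that of TNF-family costimulation is 4.88, 1.68 and 1.26. With edgeR, which is not drawn, the median of the 8 genes is 2.025, 2.097 and 0.623.

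The genes nearest to each of the 8 were sought by Euclidean distance over the 3 log2 changes, among 12744 genes tested in all 3 tables and called in at least 1. Since the 3 changes share their controls, a small distance is a description only. For Cd274 they were Bcl2a1d (distance 0.502), Ccrl2 (0.518) and Lpar1 (0.558), and 13 genes lay within a distance of 1. By the same count 1142 genes lay within that distance of Cd80, 98 of Cd86, 53 of Pdcd1lg2, 107 of Icosl, 230 of Cd276, 159 of Lgals9 and 124 of Havcr2. Nearest to Lgals9 were Parp10 (0.168), Mfsd7a (0.181) and Ms4a6c (0.182), and nearest to Cd86 were St3gal5 (0.225), Gm4117 (0.256) and Rapgef2 (0.286). Cd276 lay nearest to Phlda3 (0.123), Zfp783 (0.158) and the transferrin receptor gene Tfrc (0.185), and Havcr2 to L1cam (0.224), Scml2 (0.266) and Ric3 (0.331). For Cd80 they were Tgs1 (0.118), Lrch3 (0.132) and Arrdc4 (0.175), for Icosl Gm16340 (0.185), Gm21857 (0.349) and Ccdc25 (0.374), and for Pdcd1lg2 Gm9574 (0.370), Gm7582 (0.409) and Oas1b (0.423). Several of these are annotated as pseudogenes, and Bcl2a1d has close paralogs, so their reads may be shared with near-identical copies.

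Markers of other cells moved with the comparisons, and levels per library were not used here. All 8 macrophage markers were tested each time, with 6 higher and 1 lower at 4 h, 4 higher and 4 lower at 24 h and 5 higher and 3 lower at 3 d in the authors' deposited tables. With edgeR 3 were higher and 5 lower at 4 h and 24 h, and 4 higher and 3 lower at 3 d. Of 8 dendritic cell markers, whose cells also carry CD80, CD86 and PD-L2, 5 were called higher and 0 lower at 4 h, 2 and 2 at 24 h, and 0 and 2 at 3 d in the authors' deposited tables. With edgeR 2 were higher and 1 lower at 4 h, 2 and 3 at 24 h, and 1 and 3 at 3 d. Ccr7 was listed at 0 in the controls of all 3 tables and called higher at 4 h and 24 h, and Itgax was at 0.57, -0.74 and -2.32, or -0.37, -1.15 and -2.47 with edgeR, in the authors' deposited tables. Of 6 stromal markers 3, 2 and 1 were called higher and 0 lower at 4 h, 24 h and 3 d, and Dcn was listed at 0 in the controls and called higher in all 3 of the authors' deposited tables. With edgeR 3, 2 and 2 stromal markers were higher and 1, 2 and 1 lower. Col1a1 and Col1a2 were at -1.90 and -1.88 at 24 h without a call, or -2.94 and -2.56 with edgeR, both called, in the authors' deposited table. Of 6 B cell markers 0 were called higher and 1 lower at 4 h, 0 and 2 at 24 h and 1 and 1 at 3 d, with Ighm lowest at -1.75, -8.98 and -6.42, in the authors' deposited tables. With edgeR 0 B cell markers were higher and 2 lower at 4 h and at 24 h, and 1 and 1 at 3 d. Of 7 neutrophil markers 0, 1 and 1 were called higher and 0 lower, with Camp at 3.49 at 24 h and 1.43 at 3 d, and of 8 T cell markers 1 rose and 1 fell at 4 h, 2 fell at 24 h and 1 rose at 3 d, in the authors' deposited tables. With edgeR the neutrophil counts were the same, and 1 T cell marker rose and 2 fell at 4 h, 2 fell at 24 h and 1 rose and 1 fell at 3 d. The part of these cell types in the changes of the 8 genes was not tested, and in bulk RNA fewer cells of a type and less RNA per cell cannot be told apart.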

How the data were processed

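RNA-seq libraries of mouse macrophages in 4 groups of 3 were compared by the authors, and 3 comparison tables were used here, each of 1 MPLA group against the same controls, with no value per library. Per the submitters' processing notes, the authors used mm10 with TopHat2 and HTSeq after bcl2fastq, and DESeq, DESeq2 and edgeR, all without versions. Annotation release and strand setting are not given there. Per the file headers, the authors deposited log2 fold changes, p-values and adjusted p-values from DESeq2 and edgeR, an unscaled log2 ratio and baySeq scores, of which the adjusted score was read as an error rate. Deposited log2 ratios had the controls on top, so signs were reversed here, the direction being settled from the order of groups in the table names and from the sign of genes that lipid A is known to induce.

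At 4 h, 24 h and 3 d there are 21893, 21923 and 23248 listed genes, of which 17523, 16442 and 15111 have an adjusted p-value from the authors' DESeq2 fit. Library depths are unknown and no interval for counting error can be given. The scaling of MPLA over control libraries implied by the offset of the authors' values from the unscaled ones was 0.859, 0.934 and 2.32 for edgeR and 0.449, 0.701 and 2.12 for DESeq2 at 4 h, 24 h and 3 d.

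The 8 genes, the lists and the tests were chosen with earlier results of these data known. Calls use the authors' DESeq2 adjusted p under 0.05, adjusted over the whole table. SEs were computed from the authors' DESeq2 p-values on the assumption of a two-sided normal (Wald) test, which no source used here states. The arithmetic was checked on data simulated with the same formula, which cannot check that assumption. Named are the 8 genes, the highest and lowest called genes of each list, genes listed at 0, the neighbours of Cd274 and Pdcd1lg2 and the 3 genes nearest in pattern to each of the 8. Further genes of the lists were named after their values were seen, and some genes of the lists are not reported here. The tables hold no coordinates, so positions, overlaps and 50-base windows come from GENCODE M21 (GRCm38, which is mm10), and promoters from RefSeq (GRCm38.p6). Analysis used Python 3.11.15, pandas 2.3.3 and scipy 1.17.1.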

Additional observations from a re-analysis of the deposited data

How the results depend on the processing

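The counts of called genes among the 8 were recomputed with edgeR, with baySeq at an error rate under 0.05, with calls by all 3 methods, with Benjamini-Hochberg adjustment without the authors' NA filter, at an adjusted p under 0.01 and with a change of at least 2-fold. They ranged from 6 to 8 at 4 h (8 in the main setting), from 7 to 8 at 24 h (8) and, without the fold requirement, from 6 to 7 at 3 d (7), where the requirement of 2-fold left 2. Of 24 changes of single genes, 21 kept direction and call with edgeR. Those that did not were Cd80 at 24 h (0.01) and Cd86 at 3 d (0.13), which lost the call, and Pdcd1lg2 at 3 d (1.61), which gained it, and no direction was reversed. On the unscaled ratio less its median, Pdcd1lg2 at 3 d stood at 1.77 and no called direction was reversed. For the lists beside the 8 genes, an alternative chosen after seeing the data, edgeR gave 30 lower genes at 4 h in place of 15, and 33 at 24 h in place of 19; the edgeR columns differ in scaling and in test, and the cause was not tested. No paired analysis was possible because the tables hold no value per library, and for the same reason no library could be left out. Library depths are unknown, and Pdcd1lg2 had the largest SE at each time among the genes of the 8 that have one.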
